A study of Drosophila melanogaster with 9 samples.

Results

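The constitutive origins described here are the replication start sites of Drosophila melanogaster S2 cells that were also found in every other origin list of the same study. They were chosen by 4 overlaps: an S2 origin had to share at least 1 bp with a region of the Bg3 list and with a region of each of the 3 S2 single-fraction lists (fractions 4, 5 and 6). Only S2 origins narrower than 4000 bp on the large autosomal arms 2L, 2R, 3L and 3R were eligible, without the end of 2L from position 21000000 and the end of 3L from position 22500000. This gave 720 constitutive origins out of 5308 eligible S2 origins, or 13.6%, and out of 7268 origins in the whole S2 list. Presence in the lists chose these origins, so all counts of overlap below are descriptions. "Constitutive" means here no more than found in all 5 lists, which come from 2 cell lines.

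The ML-DmBG3-c2 line (Bg3) was derived from larval nervous tissue, and the S2-DRSC line (S2) from embryos. Short nascent strands, the RNA-primed starts of newly made leading strands, had been isolated by size on a gradient, cleared of unprimed DNA with lambda exonuclease and sequenced. Pooled gradient fractions of 2 biological replicates gave 1 list for Bg3 and 1 for S2. Single fractions of S2 cells, 4 with short, 5 with middle-sized and 6 with long fragments, were 1 sample and 1 list each, with 2 libraries per fraction by the study's design text. No treatment was applied to any group, and each line is 1 established culture and not a tissue.

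In animals, replication is prepared before S phase, when the origin recognition complex loads the MCM helicase onto DNA as an inactive double ring. Far more sites are loaded than are used in any 1 cell cycle, and which sites fire varies from cell to cell. Mapping by nascent strands therefore gives an average over many cells, and a site seen repeatedly is one used, or detected, often enough to pass the call each time. Each list stands for its replicates together, so no test between groups was possible and no spread between cultures is known. Positions are those of genome build dm3, printed as deposited. A genome of that build was not used here, so neither sequences nor gene annotation are given.

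Most eligible S2 origins were held by some other lists but few by all. Single lists held between 32.0% and 46.6% of them: 40.7% were in Bg3, 32.0% in fraction 4, 46.6% in fraction 5 and 38.1% in fraction 6. The largest class was that of 1766 origins found in no other list. The 720 constitutive origins came next, ahead of 697 origins found in Bg3 but in no fraction and 516 found in all 3 fractions but not in Bg3. All other combinations held 371 origins or fewer.

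**Figure D1:**
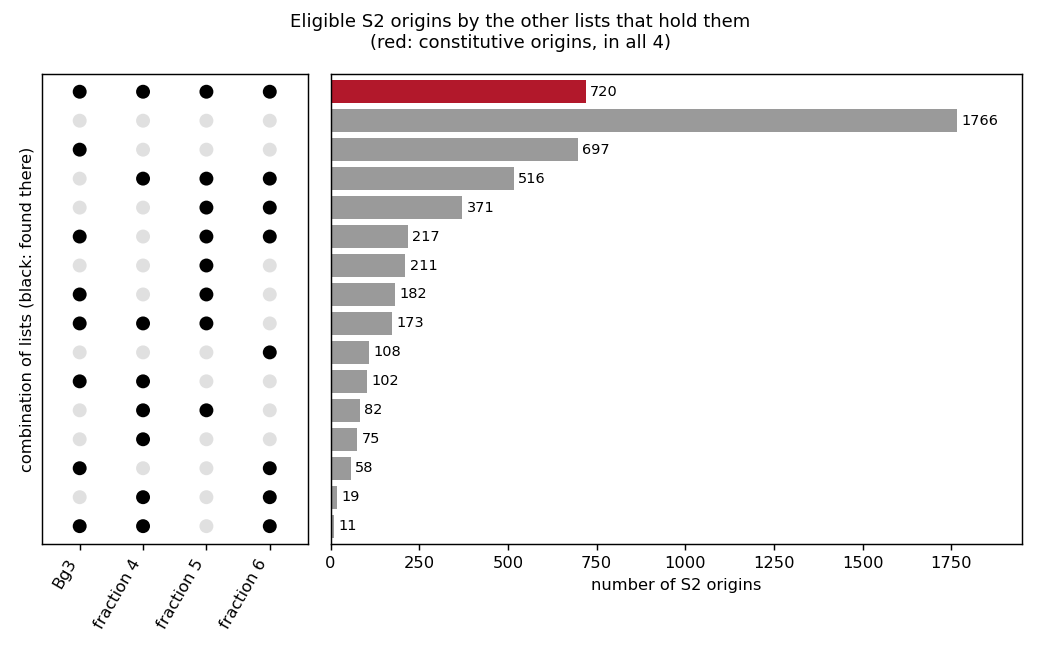
Number of eligible S2 origins (bars, horizontal axis) for each combination of the 4 other lists, where a black dot marks a list that holds the origin and a grey dot one that does not. The 720 constitutive origins in the top row are more numerous than any other combination except the 1766 origins found in no other list.

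The Bg3 list was the one that removed most candidates. Of the 1236 origins found in all 3 fractions, 720 were also in Bg3, or 58.3%, so 516 were lost at that step. Among origins found in Bg3 and the other fractions, 76.8% of 937 were also in fraction 4 and 80.6% of 893 in fraction 6. Fraction 5 removed almost nothing, since 98.5% of the 731 origins in Bg3, fraction 4 and fraction 6 were also in fraction 5, and only 11 were missing. The whole lists had 8212 regions in Bg3 and 4505, 6448 and 5814 in fractions 4, 5 and 6. On the same stretches they had 5527 in Bg3 and 2844, 4363 and 3811 in the fractions. The 4 shares have different denominators, and the part of list length in them was not tested.

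Constitutive origins were stronger and wider in S2 than the other eligible origins. Strength is the deposited efficiency, in reads per kb of the origin. The median constitutive origin had 1970.5 reads per kb (quartiles 1617 and 2541), against 1498 reads per kb (1335 and 1759) for the other 4588 eligible origins, a ratio of 1.32. The lowest constitutive origin had 1028 reads per kb and the highest 24253. In all, 83.6% of the constitutive origins lay above the median of the others. S2 strength belongs to the list whose origins the rule picked, so this difference is a description with no test.

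Median strength was higher with each further list that held an origin. It was 1411 reads per kb for origins in none of the 4 other lists, 1474 for 1 list, 1594 for 2, 1838 for 3 and 1970.5 for all 4. The share of constitutive origins among eligible ones, 13.6% over all, was 1.51% in the weakest of 10 equal groups by S2 strength, 6.78% in group 5, 19.2% in group 8 and 41.6% in the strongest. Even in the strongest group, most origins were missing from at least 1 list. In the other direction, 8 origins of the weakest group were found in every list.

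**Figure D2:**
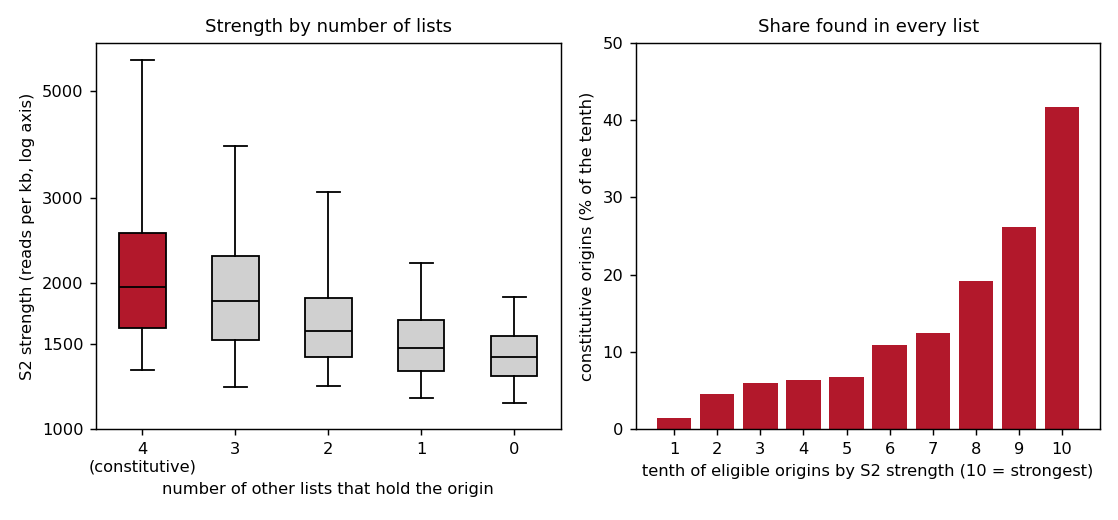
Left, S2 strength in reads per kb (log axis) of eligible S2 origins by the number of other lists that hold them, with boxes at the quartiles, a line at the median and whiskers at the 5th and 95th percentiles. Right, the percentage of constitutive origins in each of 10 equal groups of eligible origins by S2 strength, from 1.51% in the weakest group to 41.6% in the strongest.

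The reads behind these values leave little counting error. A constitutive origin held a median of 1840 S2 reads (lowest 273, highest 53496), against which Poisson counting error amounts to 4.57% (95% half-width), or 11.9% at the origin with fewest reads. PCR reads without molecular identifiers are not independent molecules, so these figures cover counting error only. Together the constitutive origins took up 0.774 Mb, which is 0.836% of the 92.5 Mb analysed and 20.3% of the width of all eligible origins. They held 2.15 M of the 7.84 M reads in eligible origins, or 27.5%.

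Width differed along with strength. Median width in S2 was 848.5 bp for constitutive origins (quartiles 624 and 1249), against 557 bp for the others (411 and 783), a ratio of 1.52. Wide regions meet regions of another list more easily, and the share of constitutive origins was 4.93% among eligible origins of 250 to 499 bp, 11.5% at 500 to 749 bp, 19.4% at 750 to 999 bp and 31.4% at 1000 bp or more. Within each of these classes the constitutive origins were still the stronger ones. Their median strength was 1568 against 1374 reads per kb at 250 to 499 bp, and 1796 against 1522 at 500 to 749 bp. At 750 to 999 bp it was 2149 against 1709, and from 1000 bp it was 2248 against 1950.2 reads per kb. The ratios within these classes, 1.14 to 1.26, were smaller than the ratio of 1.32 over all widths.

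Origins that missed a single list had medians below the constitutive one. The constitutive median was 1970.5 reads per kb, against 1902 for the 516 that lacked Bg3 alone, 1888 for the 173 that lacked fraction 6, 1649 for the 217 that lacked fraction 4 and 1499 for the 11 that lacked fraction 5. Within width classes the order between constitutive origins and those lacking Bg3 was not uniform: it was 1796 against 1876 reads per kb at 500 to 749 bp, 2149 against 1961 at 750 to 999 bp and 2248 against 2271 at 1000 bp or more. Fewer lists did not always go with lower strength. The 102 origins found in Bg3 and fraction 4 but in neither other fraction had a median of 2181 reads per kb, above the constitutive one. The 697 found in Bg3 but in no fraction had a median of 1462 reads per kb, and the constitutive median was 1.35 times theirs. Among constitutive origins 30.7% belonged to the strongest of the 10 groups, against 22.7% of the 516 lacking Bg3 alone and 2.73% of the 697 lacking all fractions. The fractions come from the same cell line as the S2 list.

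The strongest constitutive origin in S2, on 2R at 758168 to 758847, had 18590 reads per kb in Bg3 and 24253 in S2 (16492 reads). It was 680 bp wide, and its regions in Bg3 and in fractions 4 and 5 were 691 to 797 bp wide, whereas fraction 6 had a region of 7989 bp there. The next, on 2R at 2356920 to 2358334, had 25059 reads per kb in Bg3 and 21881 in S2 and was the strongest in Bg3. A narrow origin on 2R at 12185613 to 12186077 had 4840.2 reads per kb in Bg3 and 19871 in S2. All 3 stood above the 98th percentile of strength in both lists, counted over all regions of a list on the same stretches.

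The fourth and the fifth in S2 order formed a pair on 3L, at 3899396 to 3900894 and at 3900905 to 3902266, only 10 bp apart. The left one had 7315 reads per kb in Bg3 and 19269 in S2, and the right one had 9038 in Bg3 and 18765 in S2. The pair was split in every list: the gap was 34 bp in Bg3, 39 bp in fraction 4, 117 bp in fraction 5, 155 bp in fraction 6 and 10 bp in S2. The same was seen elsewhere. Of 22 pairs of neighbouring constitutive origins within 1000 bp of each other, 12 were matched to separate regions in all lists. At the others at least 1 list had a single region across the gap, as on 2R at 10992032 to 10992624 and 10992627 to 10993070, where Bg3 had a gap of 275 bp and S2 one of 2 bp, while each fraction had a single region across both. This pair was singled out after its values were seen.

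In Bg3 the next strongest was on 2L at 20209096 to 20209504, with 19658 reads per kb in Bg3 and 14851 in S2. The 3 remaining places by Bg3 strength belong to a single Bg3 region of 19406 reads per kb on 3R, at 3175361 to 3181092. It spanned constitutive origins at 3177183 to 3177498, 3177764 to 3178340 and 3179170 to 3180310, which had 1589, 1322 and 1346 reads per kb in S2. That value belongs to the whole Bg3 region and not to any of the 3 origins. Such sharing was rare: 25 of the 720 constitutive origins shared a region of some other list with another constitutive origin, and 29 overlapped a region of 4000 bp or more in another list. Those 29 had a median of 1589 reads per kb in S2, against 1982 for the other 691.

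Constitutive origins were less prominent in Bg3 than in S2, but the rule drew on 4 S2 lists and only 1 Bg3 list. The contrast describes origins so chosen and is no measure of a difference between the lines. Constitutive origins overlapped 763 of the 5527 Bg3 regions on the same stretches, or 13.8%. Among Bg3 regions under 4000 bp, those on constitutive origins had a median strength of 2390.2 reads per kb (quartiles 2144 and 2769), against 2214 (1977 and 2502) for the other 4655, a ratio of 1.08. Their median width in Bg3 was 494 bp, against 399 bp for the others. Bg3 values are not on the scale of S2 values, so only ratios and ranks within each list can be set side by side, and the ratios were 1.08 in Bg3 and 1.32 in S2. Counted by how many of the 4 S2 lists held them, Bg3 regions had medians of 2181 reads per kb for none, 2192 for 1, 2281 for 2, 2329 for 3 and 2387 for 4.

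Rank in one line was only loosely related to rank in the other. For 637 constitutive origins the S2 region met exactly 1 Bg3 region and that region met no other S2 origin. Across them the Spearman correlation of Bg3 with S2 strength was 0.31, and that of width was 0.45. These origins share their libraries, and strength and width are themselves related (Spearman 0.41 over the 720 in S2), so no p-value is given. The median percentile of strength was 64.4 in the Bg3 list and 78.1 in the S2 list, and the median of Bg3 minus S2 was -8.01 points. This contrast too describes origins chosen with more S2 lists than Bg3 lists. In all, 353 of the 637, or 55.4%, were above the list median in both lines, 67 in Bg3 alone, 161 in S2 alone and 56 in neither. The top 10% of the list held 102 of them in Bg3, 167 in S2 and 62 in both lines.

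**Figure D3:**
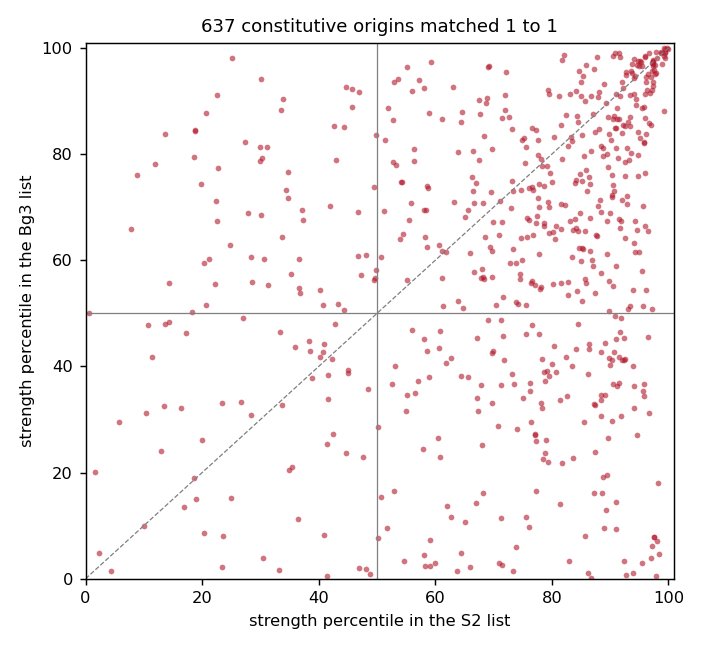
Percentile of strength of 637 constitutive origins in the Bg3 list (vertical axis) and in the S2 list (horizontal axis), one point per origin, with grey lines at the medians and a dashed line of equal rank. Points crowd in the upper right corner, where 62 origins are in the top 10% of both lists, but 98 lie more than 50 points from equal rank.

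Individual origins could hold opposite ranks in the 2 lines. Percentiles lay within 10 points of each other for 208 of the 637 and more than 50 points apart for 98. Of these 98, 18 ranked higher in Bg3 and 80 in S2, a split with the same limit. The rank was highest in Bg3 relative to S2 on 2L at 11540618 to 11541214, at the 98.2 percentile in Bg3 (4881 reads per kb) and the 25.1 percentile in S2 (1360.1). Next came 3R at 25828444 to 25828931 with 70.1 points, 3R at 18062539 to 18062890 with 68.6, 2R at 1056760 to 1057339 with 67.2 and 3L at 13644427 to 13644826 with 67.1. All 5 had between 1227.5 and 1360.1 reads per kb in S2, below the median of constitutive origins there. Rises this large can start only from a low S2 percentile, so the naming rule fixed this.

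The lowest ranks in Bg3 relative to S2 belonged to strong S2 origins, as falls this large can start only from a high S2 percentile. On 3R at 3916218 to 3917585 the percentile was 0.615 in Bg3 (1292 reads per kb, 382 bp) and 97.9 in S2 (8048 reads per kb, 1368 bp). On 2R at 1796287 to 1797305 it was 4.69 in Bg3 and 98.3 in S2, although the regions were nearly the same, 951 bp in Bg3 and 1019 bp in S2, and the 5 centres lay within 14.5 bp. On 2L at 20303149 to 20303656 it was 1.07 in Bg3 and 93.99 in S2, again with near equal widths of 505 and 508 bp. At the other 2, as at the first, the Bg3 region was much the narrower: the S2 origin on 3R at 11444428 to 11448258 met a Bg3 region of 220 bp, and that on 2L at 19347456 to 19350864 (3409 bp) met one of 1550.0 bp, with 310.0 bp common to all 5 lists. DNA copy number, which can differ between cultured lines along the genome, was not examined here, and its part in these values was not tested.

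The Bg3 value of an origin is a weighted mean of 2 whole numbers, as its product with the width showed. How close the 2 are would give a rough view of its precision only if they come from separate replicates. For 611 of the 637 origins 1 pair of numbers fitted. The medians were 1172 and 1135, and the log2 ratio of the first number to the second had a median of -0.045 with an SD of 0.28 over origins. In 82.2% the 2 numbers were within 1.25-fold of each other, and per kb they had a Spearman correlation of 0.66. With S2 strength the first had a correlation of 0.25 and the second of 0.23, and the Bg3 strength of the same 611 origins one of 0.27. Neither the labels nor the files state whether the 2 numbers are the biological replicates.

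In 3 of the 611 origins the numbers were more than 2-fold apart, and all 3 had a larger first number. They lay on 2R at 12185613 to 12186077 (3641 and 931), 3L at 13285098 to 13285519 (1830 and 476) and 3R at 20422087 to 20422388 (1614 and 481). They were narrow and strong in S2, with 19871, 6581 and 11815 reads per kb. These origins were singled out after their values were seen, apart from the first and the third, which the rules for named origins gave as well. Their Bg3 strengths therefore rest mostly on 1 of the numbers.

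Within constitutive origins the 5 regions could be compared for position, although overlap in all lists, which chose the origins, in part fixes how close their centres are. In 534 of the 720 the origin met exactly 1 region in every list and that region met no other S2 origin. Over these 534 the 5 centres spanned a median of 176 bp (quartiles 94.5 and 307), and the 3 fraction centres alone spanned 95.8 bp. The span was at most 100 bp in 147 of them, or 27.5%, and over 500 bp in 54, or 10.1%. It grew with width: the median was 93.2 bp for origins under 500 bp, 134 bp at 500 to 749 bp, 199 bp at 750 to 999 bp and 271 bp for wider ones. Relative to width it was about the same in these classes, 20.0% to 23.6%.

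**Figure D4:**
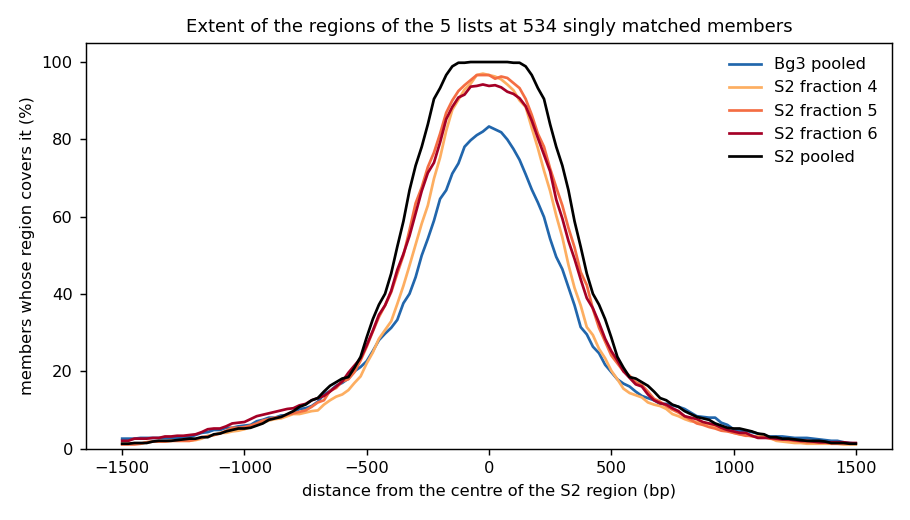
Percentage of the 534 constitutive origins matched singly in all lists whose region covers a given distance (bp) from the centre of the S2 region, for each of the 5 lists. The Bg3 regions cover the S2 centre in 83.3% of cases and fraction 4, 5 and 6 regions in 93.8% to 96.6%; the S2 curve reaches 100% at the centre by construction.

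The lists nearest each other in position were fractions 5 and 6. Their centres lay a median of 36.8 bp apart, followed by fractions 4 and 5 at 43.2 bp and fraction 5 and the S2 list at 56.2 bp. Bg3 was the most distant list from fraction 5 (79.8 bp), fraction 6 (97.2 bp) and S2 (85.5 bp). Fraction 4, however, lay closer to Bg3 (63 bp) than to fraction 6 (67.8 bp). The Bg3 centre was the one farthest from the middle of the 5 in 37.6% of origins, against 19.3% for S2 and 10.9% to 21.0% for the fractions. That middle is the median of the 5 centres, of which 4 are from S2 cells, so the comparison favours Bg3 as the farthest. No pair of lists was shifted to one side: the median signed difference between centres was between -4.75 and 3 bp for all 10 pairs.

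Regions differed in extent as well as in position. Median widths at the 534 origins were 504.5 bp in Bg3, 602.5, 705 and 687 bp in fractions 4, 5 and 6, and 770 bp in S2. Bg3 had the narrowest of the 5 regions in 48.1% of origins and S2 the widest in 38.2%. The widest region of an origin was a median of 2.12 times the narrowest, and in 240 origins all 5 widths were within 2-fold. Widths from fractions 5 and 6 had the highest rank correlation across origins (Spearman 0.82), and those from Bg3 and fraction 6 the lowest (0.35). Fragments grew longer in the order of fractions 4, 5 and 6, whereas the regions of fraction 6 were no wider than those of fraction 5 at the median, where the ratio of fraction 5 to fraction 6 within an origin was 1.00.

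Nearly all constitutive origins had a stretch common to all lists. In 687 of the 720 at least 1 base lay in a region of every list, and in 33 no single base did, because the other regions touched different parts of the S2 origin. The common stretch had a median of 387 bp over the 687 (quartiles 269 and 582.5, longest 3420.0 bp). It made up a median of 49.9% of the S2 width over the 720 and at least 90% of it in 78. A single Bg3 region covered 50% or more of the S2 origin in 63.1% of cases, compared with 81.8%, 85.7% and 81.7% for fractions 4, 5 and 6.

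The best aligned origins were of very different size and strength. The 5 centres lay within 7.5 bp on 2R at 20651184 to 20653109, where the regions were 2097 bp in Bg3, 1947, 1918 and 1912 bp in fractions 4 to 6 and 1926 bp in S2. They also lay within 7.5 bp on 3L at 14825372 to 14826051, with regions of 639 to 690.0 bp. Next came 3L at 15892379 to 15892684 (8 bp), 3R at 20422087 to 20422388 (10 bp) and 3L at 21354812 to 21355812 (11.5 bp). Of these 5, the one at 15892379 was weak in both lines, at the 0.452 percentile in Bg3 and the 41.4 percentile in S2. The others were above the 96th percentile in Bg3 and above the 82nd in S2.

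At the ends of the width range the lists differed at some origins and were close at others. The widest, on 3R at 579223 to 583218, was 996 bp in Bg3, 3019, 1486 and 1282 bp in fractions 4, 5 and 6, and 3996 bp in S2. Only the region with the longest overlap is given for each list, and fraction 6 had a further one there. The second, on 2R at 8749766 to 8753733, was 2893 bp in Bg3, 4131, 3976 and 4060.0 bp in the fractions and 3968 bp in S2, and 3420.0 bp were common to all. The third, on 3R at 11444428 to 11448258, was 220.0 bp in Bg3, 1488 to 1659 bp in the fractions and 3831 bp in S2. There too fraction 6 had a further region that is not given. The narrowest were all on 2R, at 1166324 to 1166504 (181 bp), 1234792 to 1235051 (260.0 bp) and 8994635 to 8994902 (268 bp). The 5 centres of the narrowest lay within 12.5 bp and those of the third within 23.5 bp. The origin of 260.0 bp shared a Bg3 region of 1463 bp with its neighbour 26 bp away.

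Few members lay close to the limits on width and on 1 bp of overlap. The widest member had 3996 bp, and the narrowest origin left out for its width but found in every list had 4130.0 bp. The smallest overlap of a member with any list was 13 bp, with a Bg3 region, and 6 members overlapped some list by under 50 bp. Among the 917 eligible origins in 3 of the 4 other lists, 6 lay within 50 bp of a region of the missing list, the nearest at 6 bp, and 48 within 500 bp. The median distance to the missing list was 7.58 kb. Origins missing from more than 1 list are not among the 917. With a gap of up to 500 bp allowed to every list, 823 origins would be members instead of 720.

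Constitutive origins were found on all 4 arms, at unequal density. There were 212 on 2R, 193 on 3R, 174 on 2L and 141 on 3L, or 10.0, 6.92, 8.29 and 6.27 per Mb. As a share of the eligible origins of the arm they came to 16.5% on 2R, 12.2% on 3R, 13.5% on 2L and 12.2% on 3L, against 13.6% over all. Of origins in all 3 fractions, Bg3 also held 62.7% on 2R, 52.9% on 3R, 55.4% on 2L and 64.4% on 3L. The median percentile of strength in Bg3 minus that in S2 was -4.58 points on 2R, -11.9 on 3R, -13.7 on 2L and -3.46 on 3L. These differences between arms were not tested.

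A single stretch accounted for much of the excess on 2R. The first Mb of 2R, the end of the arm nearest the centromere, held 39 constitutive origins among 81 eligible ones, or 48.1%. The median over the 94 windows of 1 Mb was 7, the lowest count was 1 and no window was empty. The last window of each arm held less than 1 Mb of analysed length, and that of 2R was among those with a count of 1. Bg3 held 72.8% of the 81 origins and 49.4% were in all 3 fractions. The 39 origins had a median width of 1147 bp, against 839 bp for the other 681, and a median strength of 1779 reads per kb, against 1977. Their median percentile was 77.8 in Bg3 and 69.3 in S2. Without that Mb, 2R had 173 constitutive origins, 14.4% of its eligible ones and 8.59 per Mb.

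**Figure D5:**
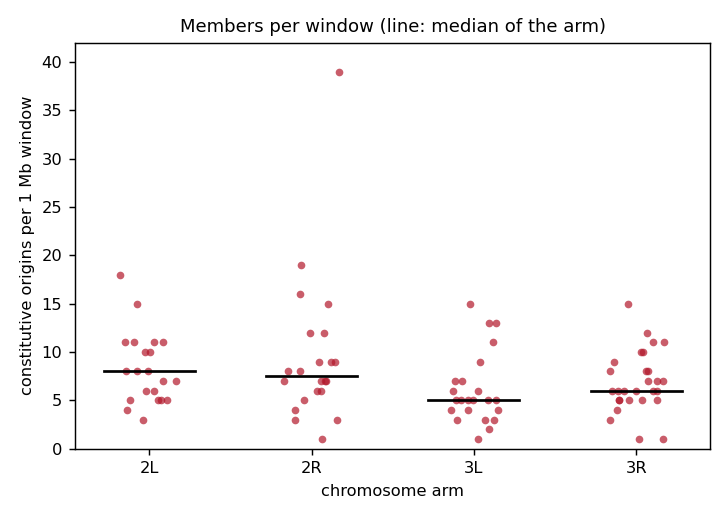
Number of constitutive origins in each of 94 windows of 1 Mb, one point per window, grouped by chromosome arm with a line at the median of the arm. The last window of each arm is shorter. One window of 2R stands at 39; the medians of the arms are 8, 7.5, 5 and 6 on 2L, 2R, 3L and 3R.

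On the other arms the densest windows among eligible origins were less pronounced. The rule had left out the ends of 2L and 3L nearest the centromere, however, and kept those of 2R and 3R. The first Mb of 3R held 7 constitutive origins, the same as the median over all windows. In every list were 43 of 175 S2 origins (24.6%) at the end of 2L and 69 of 167 (41.3%) at that of 3L. The densest eligible windows held 18 constitutive origins on 2L (20 to 21 Mb), 15 on 3L (1 to 2 Mb) and 15 on 3R (25 to 26 Mb). These were 19.8%, 17.6% and 17.6% of the eligible origins there. Long stretches had none. The longest were 997 kb on 3R (18062890 to 19060355), 952 kb on 2R (12423076 to 13374909), 906 kb on 3L (19643190 to 20549561) and 887 kb on 2L (8684985 to 9572027). These stretches were not free of S2 origins, with 31, 53, 24 and 47 eligible ones. Of these, 11 on 3R, 16 on 2R, 7 on 3L and 3 on 2L were in Bg3. In the same order, 0, 5, 2 and 10 were in all 3 fractions. The shares over all eligible origins, 40.7% in Bg3 and 23.3% in all 3 fractions, include the 720 members. Stretches chosen to hold no member lack such origins, so these shares are no reference for them.

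Few constitutive origins had another one close by, and more had an S2 origin of any kind. The 720 are far fewer than the 5444 S2 origins on the same stretches, and spacing was not compared with that density. The median distance between successive constitutive origins was 72.0 kb (quartiles 23.9 and 162 kb), and 10.8% had another within 5 kb. Another S2 origin of any kind lay within 5 kb of 52.4% of them, against 50.9% of the other eligible origins. Chains of constitutive origins with gaps of at most 5 kb numbered 27 with 2 members and 8 with 3, and none was longer. The tightest chain of 3 was the one on 3R inside a single Bg3 region, named above. The next was on 2L from 4938132 to 4941435, with S2 strengths of 1571 to 2790 reads per kb and 3 separate Bg3 regions, and the third on 2R from 415159 to 420566, with 1268 to 1997 reads per kb.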

How the data were processed

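The 9 samples were represented by 5 lists of regions. Per the submitters' processing notes, Bowtie2 2.2.0, SAMtools 0.1.19 and MACS 1.4.1 were used with build dm3; their settings and filters, and the way replicates were combined, are not given in the sources used. What the authors deposited as efficiency, called strength here, is a signal per kb: its product with the width was a whole number (within 0.001) for 100% of S2 origins. In Bg3 it could be written as a weighted sum of 2 whole numbers for all 7998 origins under 20000 reads (of 8212), in exactly 1 way for 7792. The fraction lists carry positions only, so their depth is unknown. The S2 list held 42.1 M reads in origins.

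Overlaps, widths, centres, percentiles and Spearman correlations were computed with Python 3.11.15, numpy 2.4.6, pandas 2.3.3 and scipy 1.17.1. Only the overlaps, the merging of regions and the recovery of the pairs of numbers behind Bg3 values were tested on simulated data. For an origin meeting several regions of a list, the longest overlap was used. No test was run, since each group has 1 list. The members, lists of named origins and most alternatives were chosen with earlier results of these data known. Named origins are the 5 strongest in each line, the 3 widest and 3 narrowest, the 5 with the closest centres, the 5 largest differences in percentile each way, the 3 tightest chains (of at least 3 members, by span per member) and, per arm, the densest Mb and the longest stretch without members. Sequence and gene context were not analysed here.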

Additional observations from a re-analysis of the deposited data

How the results depend on the processing

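Of 40 alternatives to the 7 main values, 21 moved little. That means counts within 1.5 times, and other values within a 95% interval that takes origins as independent and is no spread between cultures. Only the ratios and the correlation could reverse a direction, and 0 of them did. Leaving out an arm removed only the members of that arm, so the counts without an arm had to move little. Requiring 1 region of each list to cover 50% of the S2 origin left 366 of the 720 constitutive origins, and 50% of both regions left 298; not requiring Bg3 gave 1236. The ratio of S2 strength, 1.32 at the median, was 1.53 with means and 1.07 (1 origin), 1.14, 1.18, 1.26 and 1.15 in the width classes from narrow to wide. The ratio of width, 1.52, was 1.22 with 50% of both regions and 1.34 where the S2 centre had to lie inside the other regions. The Bg3 ratio, 1.08, was 1.15 with means and 1.11 with 50% of both regions. The correlation between lines, 0.31, was 0.40 for strength times width. The span of centres, 176 bp, was 233 bp over all members and 146.5 bp under 1000 bp. The share with a neighbour, 10.8% within 5 kb, was 8.47% within 2 kb, 21.4% within 10 kb and 5.87% after merging members within 1 kb. Leaving out the first Mb of 2R, chosen after seeing the data, left 681 origins and moved all 7 values little. Sequence context was not run. No paired analysis was possible because the lists pool the replicates.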

Other observations

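The rule left out S2 origins found in every list elsewhere. Such origins numbered 117 of 627 on the X (18.7%), 21 of 43 on chromosome 4 (48.8%), 43 of 175 at the end of 2L (24.6%), 69 of 167 at the end of 3L (41.3%) and 376 of 812 on heterochromatic scaffolds (46.3%). Of the 136 S2 origins of 4000 bp or more on the 4 arms, 108 were in every list (79.4%), with a median strength of 8911 reads per kb. On the X the median strength was 4224 reads per kb.

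Some sites met every condition except presence in the S2 pooled list. Of 4363 fraction 5 regions on the same stretches, 975 overlapped Bg3, fraction 4 and fraction 6, and 125 of these (12.8%) overlapped no S2 origin. Their median width in fraction 5 was 528 bp, against 826 bp for the rest.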
